A study of Mus musculus with 3 samples.

Results

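The transcription factors Wt1, Lmx1b, Tcf21, Foxc1, Foxc2 and Foxd1 were taken as the rows of the gene table that carry these symbols, 6 of 31058 rows. They were followed across the cell types of mouse glomeruli, the capillary filters of the kidney, by droplet RNA sequencing of 3′ tags (10x Genomics) with unique molecular identifiers (UMIs). There were 3 libraries, each from 1 healthy C57Bl/6 mouse: a male, a female, and a female labelled RPC-ERαKO, a knockout of oestrogen receptor alpha by its genotype label. Female ERaKO here means the library with that label. Each mouse had the transgenes Pax2.rtTA, TetO.Cre and the R26.Confetti reporter, so that doxycycline, given at 20 days of age, turned on Cre in cells with Pax2 activity and marked their descendants in colour until 90 days of age. The labels leave out which part of the receptor gene was removed. With 1 mouse a group (n = 1) no difference between groups can be set against a spread between animals: there is no test and no p-value, and every interval below is an exact 95% interval for counting error only.

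Podocytes are epithelial cells whose interlocking foot processes cover the outer wall of the glomerular capillaries and hold the slit diaphragm between them. They no longer divide, and their identity is kept by a small set of transcription factors. Wt1 is a zinc finger protein that binds near many slit diaphragm and cytoskeleton genes, Lmx1b is a LIM homeodomain protein whose human counterpart is mutated in nail-patella syndrome, and Tcf21 is a basic helix-loop-helix protein needed for glomerular development. Foxc1, Foxc2 and Foxd1 are fork head proteins. Foxc1 and Foxc2 are close relatives that both act in kidney and vessel development, and Foxd1 is best known as a marker of the stromal progenitors of the embryonic kidney, from which mesangial, smooth muscle and renin cells descend.

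The genes lie on 4 chromosomes of the mouse genome (GRCm38, GENCODE annotation). Wt1 spans chr2:105126529-105173616 on the plus strand with up to 10 exons, and Lmx1b chr2:33560965-33640511 on the minus strand with up to 8. Tcf21 spans chr10:22817281-22820174 on the minus strand with 2 exons. The fork head genes have 1 exon each: Foxc1 at chr13:31806633-31812476, Foxc2 at chr8:121116171-121118895 and Foxd1 at chr13:98354242-98359305, all on the plus strand. Because they differ in length and in the 3′ end that is tagged, their counts are compared between cells and libraries and not between genes. Overlapping genes held few counts: an antisense transcript across Tcf21 had 39, 51 and 25 podocyte UMIs in the male, the female and the female ERaKO library, and a long protein-coding model across Foxc2 had 0 in each. Wt1os, the antisense RNA that starts beside Wt1, does not overlap it and was counted apart.

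Promoter windows were read from RefSeq (GRCm38.p6), which held 4 of the 6 genes; only bases before the annotated gene are printed. The following 3 are shown because, with doublets removed, Tcf21 and Lmx1b had the highest ratio of podocytes to the next class and Foxc1 the lowest. With doublets kept, the female ratios of Lmx1b and Tcf21, 2.73 and 3.47, lay below that of Foxc2, 3.997. Capitals mark CG dinucleotides, the sites of DNA methylation.
Tcf21 (chr10:22820175-22820393, minus strand): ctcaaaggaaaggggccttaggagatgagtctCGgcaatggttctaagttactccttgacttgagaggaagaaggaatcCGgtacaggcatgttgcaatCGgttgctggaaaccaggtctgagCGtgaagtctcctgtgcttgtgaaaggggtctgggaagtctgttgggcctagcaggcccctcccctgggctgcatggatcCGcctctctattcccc
Lmx1b (chr2:33641099-33641348, minus strand): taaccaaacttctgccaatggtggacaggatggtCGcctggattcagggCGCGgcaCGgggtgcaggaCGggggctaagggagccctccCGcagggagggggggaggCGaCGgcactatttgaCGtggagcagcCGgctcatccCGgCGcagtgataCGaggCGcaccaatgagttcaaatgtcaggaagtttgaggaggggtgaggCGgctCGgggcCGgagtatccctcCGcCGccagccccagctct
Foxc1 (chr13:31806396-31806632, plus strand): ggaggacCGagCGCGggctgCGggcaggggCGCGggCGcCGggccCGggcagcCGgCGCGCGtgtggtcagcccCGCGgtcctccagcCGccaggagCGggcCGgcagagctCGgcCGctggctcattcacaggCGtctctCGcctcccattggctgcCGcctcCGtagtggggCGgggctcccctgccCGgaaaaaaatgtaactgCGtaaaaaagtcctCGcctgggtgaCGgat
The printed stretches are 219, 250 and 237 bases long, and CG dinucleotides, G and C content and motifs were counted over the whole window of 250 bases before the RefSeq start site. The Tcf21 window held 5 CG dinucleotides at 52.4% G and C. The Lmx1b window held 19 at 65.2%, the Foxc1 window 29 at 70.8% and that of Foxd1 12 at 57.2%. Over 32536 such windows the medians were 6 CG dinucleotides and 52.4%, so Tcf21 sat near the middle of all promoters and Foxc1 above 93.2% of them in CG count. On both strands, the E-box CANNTG, the general letters of the helix-loop-helix family, was found 1 time in the Lmx1b window, starting 74 bases before the start site, and 1 time in that of Foxd1, 54 bases before it. No E-box was found in the windows of Tcf21 and Foxc1, and 66.2% of all windows hold at least 1. The letters TGTTTA (fork head family, in 12.0% of windows), TAATTA (LIM homeodomain family, 4.84%), GTGGGNG (Wt1, 28.1%) and TATAAA (12.3%) were in none of the 4. CCAAT, present in 33.8% of windows, was found 2 times for Lmx1b, 1 time each for Foxc1 and Foxd1 and not for Tcf21.

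The deposited barcodes held 44585342, 44942380 and 47522141 UMIs for the male, the female and the female ERaKO mouse, the order used for every set of 3 values that follows. Filters left 3224, 2849 and 2464 cells, whose median depth was 7324, 8857 and 8033 UMIs. The female ERaKO library lost the most barcodes to the limit on mitochondrial UMIs, 34.0% against 20.97% and 17.7%. Clusters were named from marker lists that leave out the 6 genes, and the genes took no part in the clustering. Podocytes numbered 1179, 1373 and 794 cells in 4 clusters, and their 9 markers, Nphs1 and Podxl among them, summed to 25872, 23618 and 23639 CPM, the usual counts per 1e6 UMIs, here of the class. The 7 parietal epithelial markers summed to 36.0, 29.1 and 34.3 CPM in the same cells, against 2654, 2255 and 2522 CPM in the parietal class, which lines Bowman's capsule. Podocytes held median mitochondrial shares of 5.23%, 5.33% and 6.34%, and the 5 erythroid markers summed to 784, 8.43 and 645 CPM in them, lowest in the female library; the part of either in the results was not tested. Esr1, which encodes oestrogen receptor alpha, had 84, 70 and 122 UMIs over all kept cells (2.65, 2.06 and 4.37 CPM), highest in the library labelled as the knockout. It had 2, 1 and 3 UMIs in podocytes, 5, 0 and 5 in parietal cells, 14, 8 and 70 in proximal tubule cells (4.39, 2.86 and 14.2 CPM) and 40, 25 and 25 in smooth muscle and renin cells (21.9, 19.9 and 14.6 CPM). These counts do not show the loss that the label gives; as they are 3′ tags and the position of the deletion is not known, they are no check of the knockout.

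Of the 6 genes, 5 were highest in podocytes among the 7 compared classes in each library, and 1, Foxc1, was highest in mesangial cells. The classes with at least 30 cells in each library were podocytes, parietal epithelial, mesangial, smooth muscle and renin, endothelial and proximal tubule cells, and macrophages. Podocytes gave 82.7%, 86.2% and 74.5% of all Wt1 UMIs of the kept cells, 90.3%, 88.6% and 89.7% of those of Tcf21, but only 57.4%, 70.4% and 38.9% of those of Foxc1. These shares also move with the number of podocytes in a library.

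**Figure D1:**
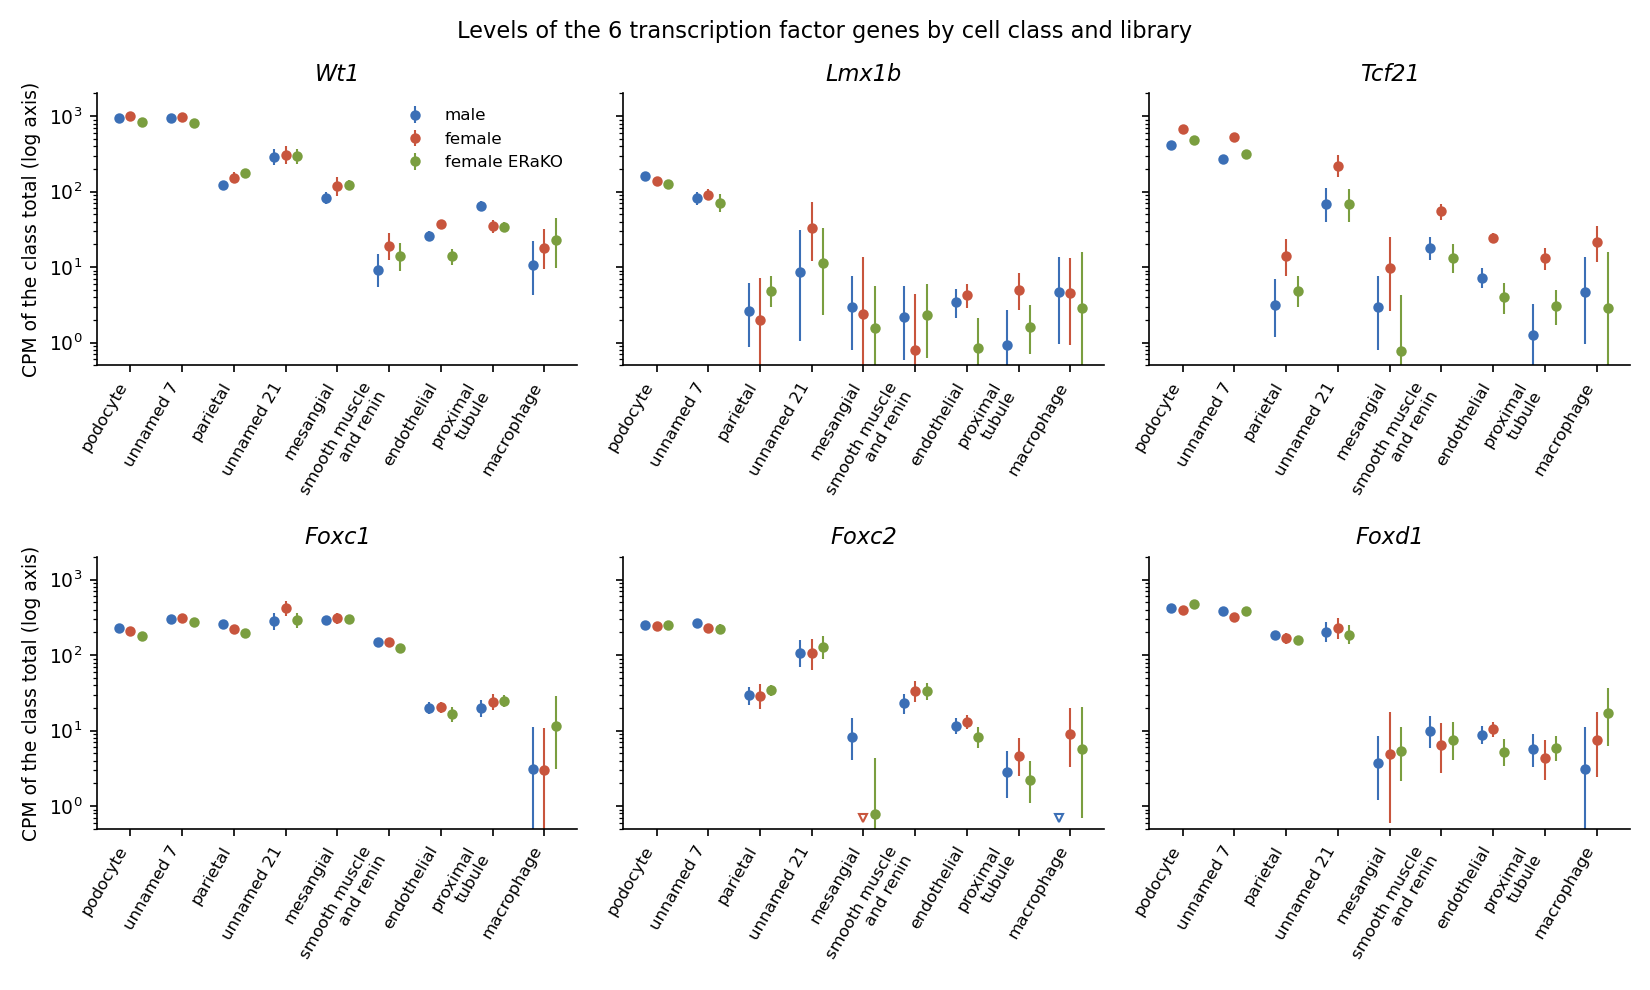
Levels of the 6 genes in each compared cell class and in the unnamed clusters 7 and 21, in CPM of the class on a log axis, with 1 point for each library and bars for the exact 95% counting interval; an open triangle at the bottom of a panel is a class with 0 UMIs. Podocytes are the highest named class for 5 genes, and for Foxc1 the mesangial points lie above the podocyte ones in each library.

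Wt1 was found in nearly every podocyte and, at a lower level, in parietal and mesangial cells. Podocyte levels were 936 CPM (918 to 955), 993 (977 to 1008) and 828 (807 to 850), and 98.9%, 99.5% and 99.1% of podocytes held a UMI. The female ERaKO library was lowest, and the intervals of the 3 libraries do not overlap. Parietal cells stood at 122 (107 to 139), 154 (130 to 180) and 175 CPM (163 to 189), 7.69-, 6.46- and 4.72-fold below podocytes, and 68.9%, 68.8% and 79.2% of them held a UMI. The female ratio of podocytes to the next class was 2.84 with doublets kept and 3.93 with libraries clustered apart, and the male one 4.93 with classes set cell by cell. Mesangial cells stood at 83.4 (68.8 to 100.3), 119 (88.2 to 158) and 123 CPM (104 to 143). Immune cells (macrophages, T and NK cells) served as the background: 6.02%, 12.4% and 11.5% of them held a UMI. Their median depth was 6006, 7970 and 6454 UMIs against 7794, 9193 and 7407 in podocytes and 9325, 8999 and 11763 in parietal cells.

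How much of a low level could be podocyte RNA in the droplet was measured from Nphs1, which encodes nephrin, the main protein of the slit diaphragm, a measure chosen after the levels were seen. Nphs1 stood at 1515, 1696 and 1250 CPM in podocytes and 21.8, 56.3 and 41.2 CPM in parietal cells, and the podocyte ratio of each gene to Nphs1 gives the count that podocyte RNA would bring. Its error is wider than the intervals given for it, which leave out the counting error of the 41, 56 and 169 Nphs1 UMIs in parietal cells and of the 26, 8 and 18 in mesangial cells. Parietal Wt1 was 9.04, 4.67 and 6.42 times that count and mesangial Wt1 7.03, 10.5 and 13.3 times. In endothelial cells, with 26.0, 37.3 and 13.9 CPM of Wt1, the ratio was 1.33, 1.13 and 1.35. Among the 97, 55 and 141 parietal cells without any UMI of Nphs1, 63.9%, 61.8% and 72.3% still held Wt1, and so did 42.6%, 56.4% and 63.3% of 176, 39 and 128 such mesangial cells.

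Lmx1b was found in podocytes and was low in every other compared class. Podocytes held 161 CPM (153 to 168), 139 (133 to 145) and 128 (120 to 136), highest in the male library. A UMI was seen in 70.2%, 70.0% and 64.4% of podocytes, which fell to 47.2%, 41.9% and 38.5% when each cell was thinned to 4000 UMIs. The next highest class lay 34.7-, 27.8- and 26.2-fold below and was a different one in each library: macrophages, proximal tubule cells and parietal cells. With doublets kept, these ratios were 10.7, 2.73 and 8.64. The female one was 3.79 with libraries clustered apart and 9.33 with classes set cell by cell, and the female ERaKO one 15.2 at 10% mitochondrial UMIs or less. Parietal cells held 5, 2 and 20 UMIs of Lmx1b in all, which is 1.15, 0.44 and 1.16 times the count given by podocyte RNA.

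Tcf21 was in podocytes and, far lower, in a group of smooth muscle cells, and it was the gene that differed most between libraries. Podocyte levels were 418 CPM (406 to 430), 675 (663 to 688) and 484 (468 to 501), with a UMI in 91.6%, 98.3% and 94.1% of cells. The female library was the highest and the intervals do not overlap. Thinned to 4000 UMIs, podocytes held 1.69, 2.77 and 1.98 UMIs of Tcf21 each, and 25.3%, 49.5% and 31.5% of them held 3 or more. The smooth muscle and renin class stood at 18.0, 55.0 and 13.4 CPM, 23.2-, 12.3- and 36.1-fold below podocytes. With doublets kept, the ratios of podocytes to the next class were 11.6, 3.47 and 13.01; the female one was 4.67 with libraries clustered apart, and the female ERaKO one 17.96 with classes set cell by cell. Most of this came from cluster 8, with Rgs5, Acta2 and Myh11 among its leading genes, where 122, 96 and 82 cells gave 27, 67 and 20 UMIs, or 34.4, 90.8 and 35.6 CPM. That was 3.16, 3.91 and 2.07 times the count from podocyte RNA. Parietal cells were below that count (0.53, 0.63 and 0.31 times) and endothelial cells near it (0.83, 1.09 and 0.66). Among smooth muscle and renin cells without a UMI of Nphs1, 7.63%, 21.5% and 8.77% of 262, 149 and 228 cells held Tcf21.

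**Figure D2:**
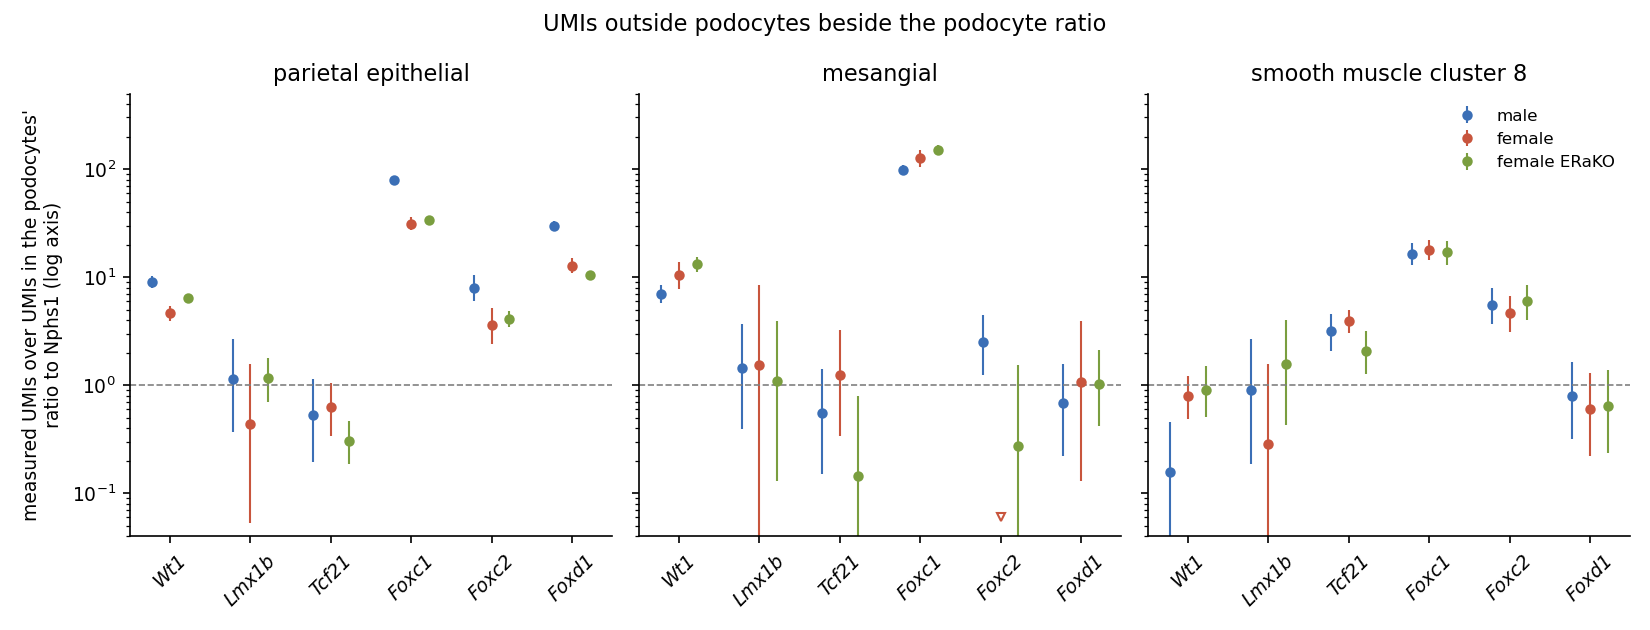
Measured UMIs of each gene over the UMIs that podocyte RNA would bring, judged from Nphs1, in parietal cells, mesangial cells and smooth muscle cluster 8; the axis is logarithmic, bars are exact 95% counting intervals of the measured UMIs, the line at 1 marks a level equal to podocyte RNA, an open triangle marks 0 UMIs, and intervals that reach past the lower edge are cut there. Foxc1, Wt1, Foxd1 and Foxc2 in parietal cells lie above 1, while Lmx1b and Tcf21 lie near or below it.

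Foxc1 was shared by podocytes, parietal cells and the mesangial and mural cells. Its podocyte levels were 231 CPM (222 to 241), 211 (204 to 218) and 177 (168 to 187). Mesangial cells held more, at 290 (262 to 320), 307 (255 to 365) and 298 CPM (269 to 330), so podocytes were at 0.80, 0.69 and 0.59 of the mesangial level. Parietal cells stood between them, at 263 (240 to 287), 219 (191 to 250) and 197 CPM (184 to 212), and their intervals overlap those of podocytes in each library. Smooth muscle and renin cells held 150, 148 and 124 CPM, endothelial cells 20.1, 20.4 and 16.4. Mesangial Foxc1 was 99.0, 127 and 151 times, and parietal Foxc1 78.9, 31.3 and 33.8 times, the count that podocyte RNA would bring. A UMI was found in 77.7%, 82.2% and 84.3% of mesangial cells and 87.7%, 77.9% and 79.7% of parietal cells, against 3.01%, 8.85% and 11.5% of immune cells.

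Foxc2 had a narrower pattern than its relative. Podocytes held 255 CPM (245 to 265), 244 (237 to 252) and 251 (239 to 263), whose intervals overlap. In podocytes this was the gene of the 6 that differed least across libraries. Parietal cells held 29.3, 29.1 and 34.2 CPM, and smooth muscle and renin cells 23.0, 33.5 and 33.2, from 7.30- to 8.71-fold below podocytes for the higher of the pair. The female ratio to the next class was 3.997 with doublets kept and 4.27 with libraries clustered apart. Parietal Foxc2 was 7.97, 3.59 and 4.13 times the count from podocyte RNA. Mesangial cells held 11, 0 and 1 UMIs of Foxc2, beside 393, 126 and 384 of Foxc1, and 0 of 45 female mesangial cells, taken as under 3 counts, allows a share of cells with a UMI of up to 6.67%, which sets no limit on cells that express the gene below detection.

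Foxd1 marked podocytes and parietal cells but not the stromal classes. Podocyte levels were 427 CPM (415 to 440), 393 (383 to 402) and 470 (454 to 486), highest in the female ERaKO library, with no overlap of the intervals. Parietal levels were 182 (164 to 203), 167 (142 to 194) and 161 CPM (149 to 174), 2.34-, 2.35- and 2.92-fold below. A UMI was found in 72.1%, 66.2% and 73.4% of parietal cells, and in 67.0%, 63.6% and 70.9% of those without Nphs1. Mesangial cells held 3.69, 4.87 and 5.44 CPM, 0.68, 1.08 and 1.03 times the count from podocyte RNA, and smooth muscle and renin cells 9.84, 6.38 and 7.57 CPM. The intervals of the mesangial ratios include 1 in each library.

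A share of cells with the podocyte genes stayed outside the named podocyte class. Cluster 7, with Cst12, Pla2g7, Dkk3, Igfbp6 and Ogn as leading genes, held 127, 140 and 98 cells. It was left unnamed because its podocyte marker score, 1.09, lay below the minimum of 1.5, which was set after the clusters were seen. Its podocyte markers summed to 11935, 11644 and 8947 CPM. Its Wt1 level was 949, 985 and 812 CPM, close to that of podocytes, and Lmx1b was 81.7, 91.8 and 71.5 CPM, below it. Tcf21 stood at 270, 528 and 312 CPM, lower than in podocytes of the same library, and Foxc1 at 299, 313 and 275 CPM, higher. Cluster 21, with Tagln, Mgp, Coch and Ogn, had 35, 25 and 37 cells and podocyte markers at 1045, 1504 and 639 CPM. It still held Wt1 at 287, 311 and 293 CPM, Foxc1 at 283, 416 and 290 CPM and Foxd1 at 206, 228 and 188 CPM, with Lmx1b at 8.57, 33.3 and 11.3 CPM. Measured Wt1 in cluster 21 was 3.01, 2.81 and 8.41 times the count given by podocyte RNA. By contrast, the distal convoluted tubule cluster of 36, 8 and 18 cells held 279, 585 and 230 CPM of Wt1 beside podocyte markers at 8338, 16130 and 6387 CPM, at 0.89, 0.76 and 1.06 times that count.

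The comparison of the male with the female library asks how podocytes differ by sex. In podocytes 1 of the 6 genes, Tcf21, was at least 1.5-fold apart, where 3.99% of 11501 genes with at least 20 counts were. Tcf21 was 1.61-fold lower in the male library, a log2 ratio of −0.69 (−0.74 to −0.64; 4517 against 10809 UMIs). The other ratios were 0.21 for Lmx1b (0.12 to 0.30), 0.13 for Foxc1 (0.06 to 0.21), 0.12 for Foxd1 (0.07 to 0.18), 0.06 for Foxc2 (−0.01 to 0.13) and −0.08 for Wt1 (−0.12 to −0.05). The median of the 6 was 0.09, beside 0.02 over all genes. The Tcf21 ratio was alike in each of the 4 podocyte clusters, at −0.67, −0.69, −0.69 and −0.71, and stood at −0.97 in cluster 7.

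The comparison of the female ERaKO with the female library asks, by its label, what loss of the receptor changes, a loss that the Esr1 counts do not show. It shares the female library with the first comparison, so a value particular to that mouse enters both. None of the 6 genes was 1.5-fold apart in podocytes, where 6.51% of 11333 genes were. Tcf21 was again the furthest, at −0.48 (−0.54 to −0.42), and its 4 podocyte clusters gave −0.49, −0.44, −0.43 and −0.63. Wt1 stood at −0.26 (−0.30 to −0.22), Foxc1 at −0.25 (−0.35 to −0.16) and Lmx1b at −0.12 (−0.23 to −0.01), Foxc2 at 0.04 (−0.04 to 0.12) and Foxd1 at 0.26 (0.20 to 0.32). The median was −0.19, beside −0.01 over all genes.

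**Figure D3:**
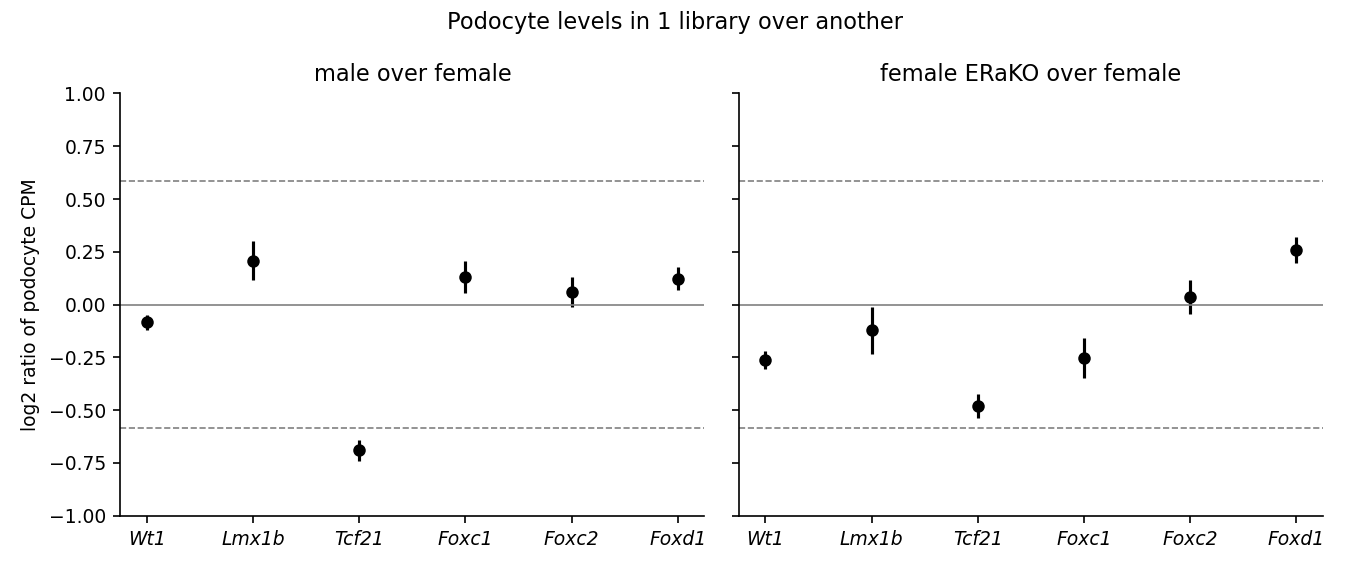
Log2 ratio of podocyte CPM for each gene, male over female and female ERaKO over female, with exact 95% counting intervals; dashed lines mark 1.5-fold. Tcf21 in the male library is the 1 point past a dashed line, and both panels share the female library.

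**Figure D4:**
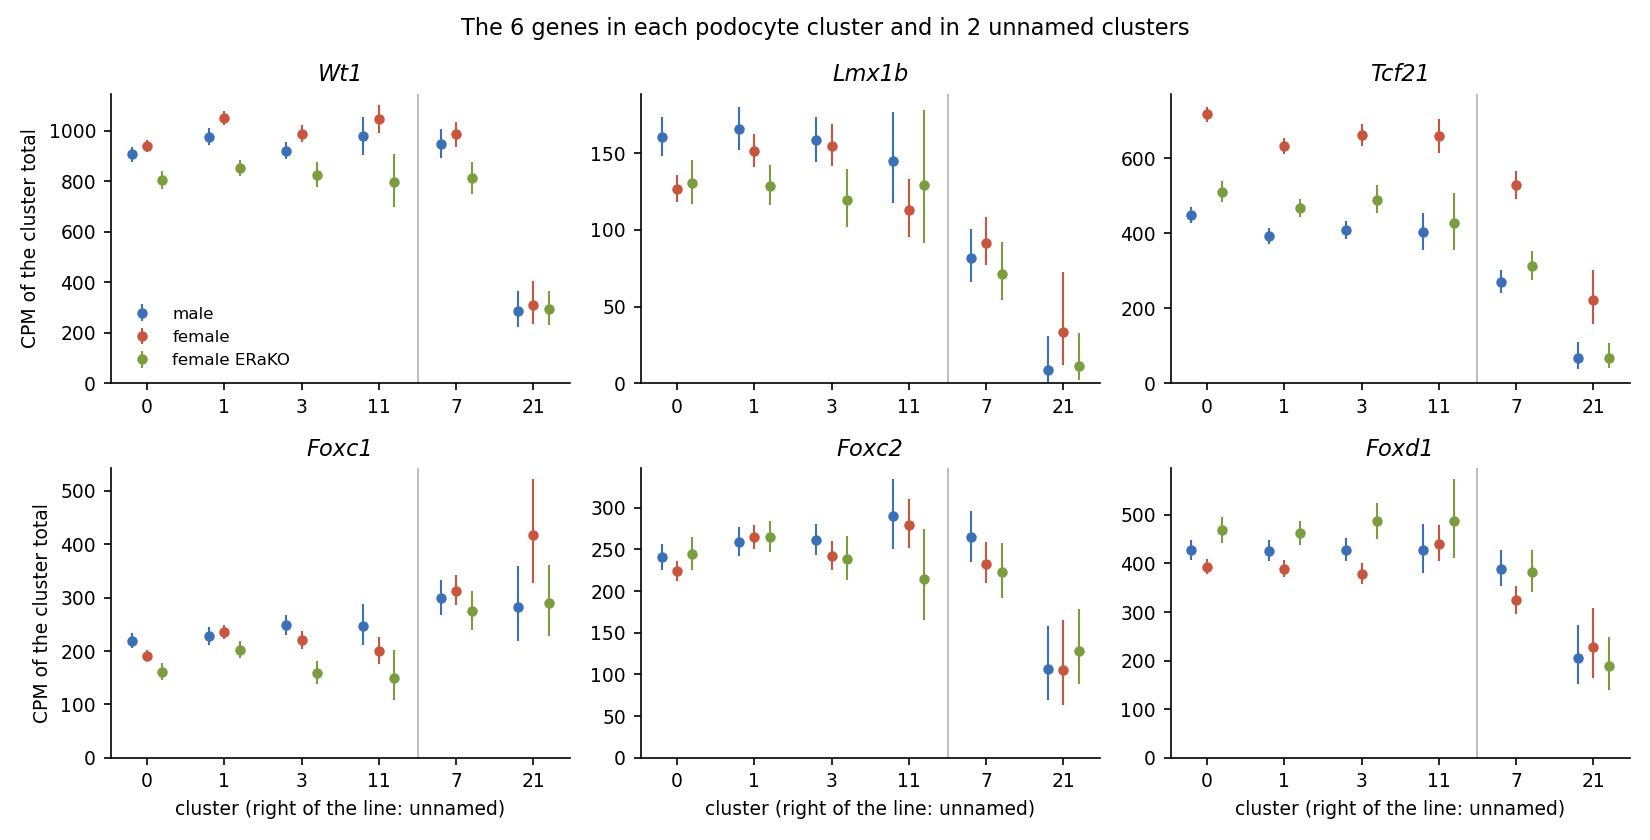
CPM of each gene in the 4 podocyte clusters and, right of the line, in the unnamed clusters 7 and 21, by library, on linear axes from 0 with exact 95% counting intervals. Within each podocyte cluster the female Tcf21 point lies above those of the other libraries, from 632 to 717 CPM against 392 to 449 in the male and 426 to 510 in the female ERaKO library.

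Tcf21 was highest in the female library in 7 of 7 compared classes, a count that holds for none of the other 5 genes. In proximal tubule cells it rests on clusters that the male library all but lacks. In mesangial cells it rests on 4, 4 and 1 UMIs, and in macrophages on 3, 14 and 1. As given above, parietal Tcf21 lay below the count from podocyte RNA and endothelial Tcf21 near it. In smooth muscle and renin cells it was lower in the male cells (log2 ratio −1.56, −2.25 to −0.99) and the female ERaKO cells (−1.96, −2.79 to −1.34). There 14.9% and 18.3% of all genes were at least 1.5-fold apart. Wt1 was also lower in the male cells of that class (−0.97, 17 against 24 UMIs). There Wt1 was 0.44 times the count from podocyte RNA in the male and 0.87 times in the female library. Within cluster 8 the Tcf21 ratios were −1.37 and −1.33. In parietal cells Tcf21 stood at −1.85 (6 against 14 UMIs; 17.5% of all genes apart) and −1.36 (20 against 14 UMIs; 17.9%), and Lmx1b in the female ERaKO cells at 0.97 on 20 against 2 UMIs, with an interval from −0.76 to 4.42. Mesangial cells had enough UMIs for 2 genes, neither of them 1.5-fold apart, where 19.2% and 21.2% of all genes were: Wt1 at −0.51 and 0.04, and Foxc1 at −0.08 and −0.04. These 3 classes gave 6 calls in all, and 19 with doublets kept.

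Proximal tubule cells sat in different clusters by library: cluster 13 held 77, 39 and 93 of the 173, 125 and 269 cells, cluster 20 held 95, 2 and 2, cluster 15 held 0, 44 and 88, and cluster 16 held 1, 40 and 86. The next-best class of cluster 13 was parietal epithelial. In proximal tubule cells 2 of 5 measured genes were apart in the male library, Wt1 higher (0.89) and Tcf21 lower (−2.66), where 20.7% of all genes were. In the female ERaKO library 3 of 6 were, Lmx1b (−1.19 on 8 against 14 UMIs), Foxc2 (−0.80 on 11 against 13 UMIs, with an interval from −2.36 to 0.22) and Tcf21 (−1.81), where 14.1% of all genes were. Within cluster 13, added after the values were seen, Wt1 stood at 103, 42.6 and 71.5 CPM, log2 ratios of 1.26 (0.81 to 1.76) and 0.73 (0.27 to 1.25), and Tcf21 had 2, 0 and 3 UMIs. Of the 37 female Tcf21 UMIs of the class, 28 came from cluster 15.

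In endothelial cells podocyte RNA moved with such ratios. There 1 of the 6 genes was at least 1.5-fold apart in the male library, where 6.37% of all genes were, and 5 of 6, all lower, in the female ERaKO library, where 9.68% were. Tcf21 stood at −1.62 and −2.35. Nphs1 was at 31.6, 56.4 and 15.6 CPM in these cells, and 8 of 13 measured podocyte target genes were lower in the female ERaKO library too. In smooth muscle and renin cells it was at 33.9, 37.5 and 23.3 CPM. The part of podocyte RNA in the ratios outside podocytes was not tested.

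Genes around the 6 were described from lists drawn up for podocytes. Over all genes with at least 20 counts, 3.99% were at least 1.5-fold apart in podocytes for the male and 6.51% for the female ERaKO library. Of 12 other podocyte regulators 11 had enough counts, and 1 was higher and 1 lower in the male library. Klf15, a Krüppel-like factor that responds to glucocorticoids, was at 12.9, 24.6 and 12.2 CPM, with log2 ratios of −0.88 and −0.95, and was the 1 gene of the list apart in the female ERaKO library. Klf4, a factor of the same family, stood at 0.62 and 0.37. The list's medians were 0.12 and 0.03. Of 14 genes reported as podocyte targets of the 6 factors, 12 were measured and 0 were 1.5-fold apart in either comparison, with medians of 0.12 and 0.00. Nphs1 stood at −0.16 and −0.44, Podxl, which encodes podocalyxin, at 0.23 and 0.10, Col4a4, a collagen chain of the basement membrane, at 0.21 and 0.28, and Rhpn1 at −0.04 and 0.31.

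Of 12 stromal and mural regulators 6 were measured in podocytes in each comparison, with 1 and 2 of them higher and 0 lower. Over all genes 3.99% and 6.51% were at least 1.5-fold apart there. The higher genes, Mef2c and Ebf1, had no more than 24 UMIs in a library. Pax8, a nephron factor, was the 1 gene of 10 parietal and tubule regulators measured in both comparisons and stood at 0.07 and −0.06; Hnf4a, a tubule factor, had 17 female ERaKO against 5 female UMIs and was the 1 gene higher. Of 21 close relatives 9 were measured, 3 and 1 of them higher and 0 lower, beside 3.99% and 6.51% of all genes apart. Foxs1 stood at 32.8, 18.1 and 27.8 CPM (0.83 and 0.60) and Egr1, a zinc finger relative of Wt1 that is also an immediate early gene and responds to tissue dissociation, at 299, 168 and 252 CPM (0.83 and 0.58). Egr2 had 27, 12 and 10 UMIs. Foxd2 at 137, 121 and 125 CPM and Foxl1 at 28.3, 32.9 and 30.4 CPM were fork head genes highest in podocytes in each library. Wt1os was at 105, 135 and 112 CPM (−0.36 and −0.26), lowest in the male library, whereas Wt1 was lowest in the female ERaKO library. Wtip, which encodes a partner protein of Wt1, was at 89.9, 67.5 and 33.9 CPM (0.41 and −0.97).

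Across the 21 sums of 7 classes in 3 libraries, genes were ordered by Pearson's r of log2(CPM + 10) with each factor, a description over sums that share libraries and mice. The genes most like Wt1 were Mmp23 (0.98), Arhgap28 (0.95), Sh2d4a (0.95), Wt1os (0.94) and Mrpl48 (0.94). Those most like Lmx1b were Dync1i1, Tmem54, Kcna6, Ube2ql1 and Necab3, all at 0.99. Tcf21 was most like Kcnj12 (0.98), Foxl1 (0.97), Rarres1 (0.97), Shisa3 (0.96) and Gabrb1 (0.96). For Foxc1 these were Fgfr2 (0.96), Vasn (0.96), Aebp1 (0.95), Hoxc9 (0.95) and Hspa12a (0.95). Foxc2 was most like Enpep (0.97), Asic2 (0.96), Plce1 (0.96), Gas1 (0.96) and Abca5 (0.95), and Foxd1 most like Aplp1 (0.98), Epn3 (0.98), Fam222a (0.97), Raver2 (0.97) and Scx (0.97). Among the 6, the highest value was between Lmx1b and Tcf21 (0.93) and the lowest between Foxc1 and Lmx1b (0.30).

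Single cells differed by class in how many of the 6 genes they showed. Thinned to 4000 UMIs, 99.2%, 99.6% and 99.5% of podocytes held at least 2 of the genes, 74.1%, 74.6% and 72.5% at least 4, and 9.25%, 9.83% and 8.94% all 6. The mean was 4.17, 4.17 and 4.10 genes a podocyte. Parietal cells held at least 2 in 50.0%, 48.1% and 48.8% of cells, and at least 4 in 0%, 3.90% and 3.86%. Their mean was 1.54, 1.57 and 1.56, and the genes were chiefly Foxc1, Foxd1 and Wt1, with thinned shares of 60.7%, 53.2% and 48.8% for Foxc1 and 50.0%, 44.2% and 42.5% for Foxd1. Mesangial cells held none in 24.9%, 24.4% and 21.6% of cells, and smooth muscle and renin cells none in 47.6%, 45.3% and 53.9%.

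**Figure D5:**
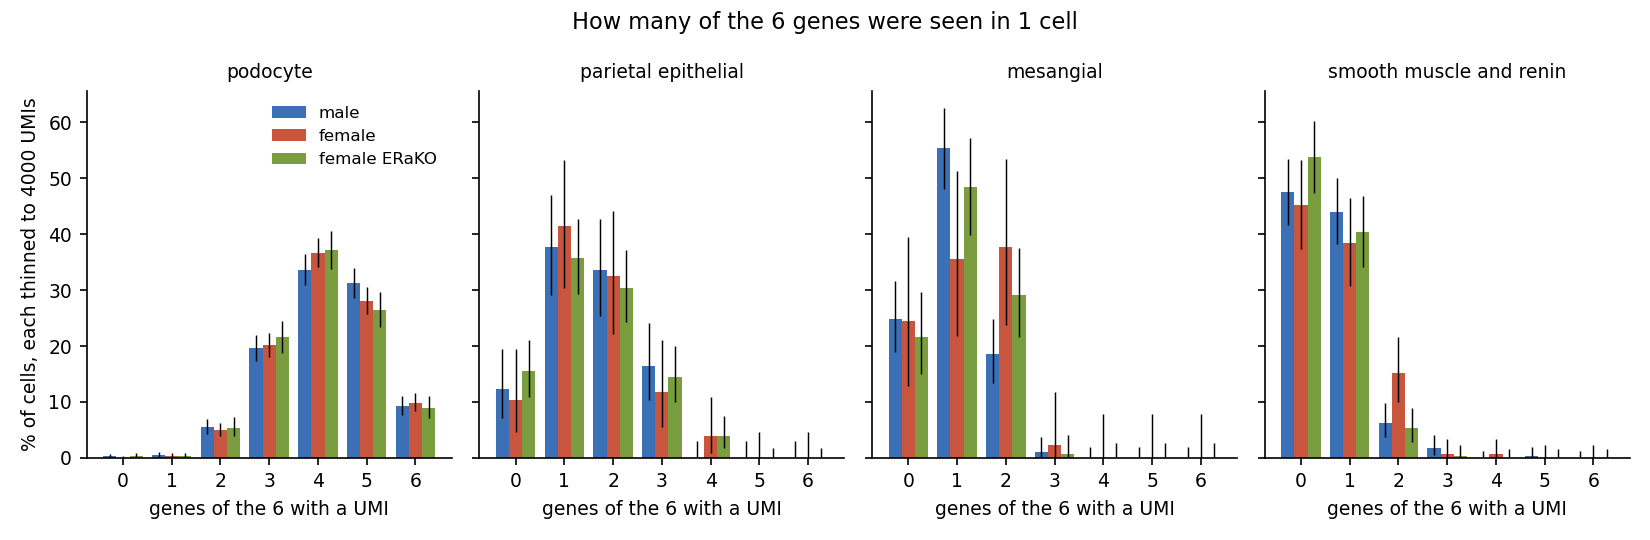
Share of cells that hold 0 to 6 of the genes after thinning to 4000 UMIs, in 4 classes, with a bar for each library and exact 95% binomial intervals. Podocytes centre on 4 genes, parietal cells on 1 and 2, and the smooth muscle and renin cells on 0 and 1.

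Within podocytes a gene was seen little more often in cells with another of the genes than in cells without it, once depth was made equal. With counts as deposited, 10 pairs had enough cells without each gene. In 9 of them the share was higher among cells with the other gene in each library. Thinned, this held for 5 of 15 pairs, and the reverse for 0. Cells with an Lmx1b UMI were deeper, with a median of 8326 UMIs in the male library against 6677 in cells without one. Thinned, Lmx1b was in 49.8%, 42.7% and 39.8% of podocytes with Foxc2 and in 42.9%, 40.7% and 36.5% of those without. In parietal cells, Foxc2 was found in 36.4%, 31.4% and 48.7% of cells with Foxd1 and in 14.7%, 7.69% and 9.09% of those without. The cells with Foxd1 were deeper here too, with medians of 10169, 9097 and 14624 UMIs against 8785, 8425 and 9686, and the thinned shares were 6.56%, 14.7% and 12.5% against 4.92%, 6.98% and 8.40%.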

How the data were processed

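The authors deposited 1 matrix of raw UMI counts per gene and cell barcode for each mouse, per the file headers. The submitters' processing notes name Cell Ranger 6.1.2, STAR 2.7.5a and mm10; strand and intron settings are not given in the sources used here. Barcodes were kept where they had 500 genes or more and no more than 25% mitochondrial UMIs, and Scrublet doublets (3.27%, 1.76% and 5.70%) were removed. Library pairs shared 4, 8 and 4 barcodes. Cells were scaled to 10000 UMIs and clustered in scanpy 1.11.5 (2000 variable genes, 30 components, 15 neighbours, Leiden resolution 1, leidenalg 0.10.2), giving 29 clusters. Clusters were named from marker lists, with a minimum score set after they were seen, so a class stands for podocyte-like cells and so on; 536 of 8537 cells stayed unnamed. UMIs were summed per class and library as CPM. Log2 ratios used a pseudocount of 1 CPM, called at 1.5-fold with at least 20 counts; intervals (scipy 1.17.1) are exact 95% Poisson, Clopper-Pearson or conditional, the last without the pseudocount. The scripts were tested on simulated data. edgeR 4.0.16 gave the TMM alternative. The 6 genes and all lists were chosen with earlier results of these data known, which already showed the male Tcf21 value. Named genes are the 6, genes of the lists, the 5 genes closest in pattern to each (at least 100 UMIs; predicted genes left out), and cluster markers. Esr1, Nphs1 as a podocyte RNA measure, and cell sets without it, were added after levels were seen.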

Additional observations from a re-analysis of the deposited data

Results flagged for a closer look

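Outside podocytes, 2 genes were at least 1.5-fold higher in 1 class and at least 1.5-fold lower in another under the same comparison. Lmx1b, female ERaKO over female, stood at a log2 ratio of 0.97 in parietal epithelial cells (20 against 2 UMIs), −1.51 in endothelial cells (4 against 30) and −1.19 in proximal tubule cells (8 against 14). The parietal interval ran from −0.76 to 4.42. In the female ERaKO and the female library, parietal Lmx1b was 1.16 and 0.44 times the count from podocyte RNA. Endothelial Lmx1b was 0.53 and 0.92 times that count, and proximal tubule Lmx1b 1.09 and 2.34 times. Wt1, male over female, stood at 0.89 in proximal tubule cells (208 against 97 UMIs) and at −0.97 in smooth muscle and renin cells (17 against 24). In male and female smooth muscle and renin cells, Wt1 was 0.44 and 0.87 times the count from podocyte RNA. In the proximal tubule class as a whole, Wt1 lay above that count in both libraries, as given below. The part of podocyte RNA in these ratios was not tested. Proximal tubule cells sat in different clusters by library, with 95 male and 2 female cells in cluster 20 and 0 and 44 in cluster 15; within cluster 13, which held 77 and 39, the Wt1 ratio was 1.26. These differences between classes were not tested, as each value compares 1 library with another.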

How the results depend on the processing

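No paired analysis was possible because each group has 1 sample. For the same reason no replicate could be left out. The count of genes highest in podocytes in each library, 5, was the same under 9 alternatives (other filters, resolutions, doublets kept, libraries clustered apart and the like), and the counts at least 1.5-fold apart in podocytes, 1 and 0, under 18. The Tcf21 ratio ranged from −0.77 to −0.68 in the male and from −0.51 to −0.47 in the female ERaKO library. Foxc2 turned from 0.04 to −0.07 when podocyte clusters were weighted equally, an alternative chosen after seeing the data. TMM and median-of-ratios scaling changed none of these podocyte calls. Of the podocytes with at least 2 genes, thinning to 2000 UMIs left 88.2%, 91.6% and 89.3%, no thinning gave 100% in the female and 99.9% in the female ERaKO library, and clustering each library apart gave 98.6% in the male one. List genes 1.5-fold apart in podocytes went from 6 to 2 in the female ERaKO library with a pseudocount of 10 CPM, and from 6 to 3 with that pseudocount, 3 after thinning to 4000 UMIs and 10 with no minimum count in the male one. Calls of the 6 genes in parietal, mesangial and smooth muscle and renin cells went from 6 to 13 with classes set cell by cell, 19 with doublets kept and 16 with libraries clustered apart. With doublets kept, the female ratio of podocytes to the next class went from 27.8 to 2.73 for Lmx1b, 12.3 to 3.47 for Tcf21, 7.30 to 3.997 for Foxc2 and 6.46 to 2.84 for Wt1, and with libraries clustered apart to 3.79, 4.67, 4.27 and 3.93. Apart from settings that use fewer UMIs or keep more genes, the cause of these moves was not tested. Depth limits the low levels: in mesangial cells 4 of the 6 genes had under 20 UMIs.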

Other observations

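Proximal tubule cells of the male library held Wt1 at 65.2 CPM, against 34.6 and 34.3 CPM in the female and female ERaKO libraries, beside Nphs1 at 10.97, 26.1 and 14.6 CPM. The classes hold different clusters: cluster 20 gave 95 of the 173 male cells and held 11 Wt1 UMIs there, while clusters 15 and 16 gave 44 and 40 of the 125 female cells. Cluster 13, whose next-best class was parietal epithelial, gave 197 of the 208 male, 48 of the 97 female and 145 of the 169 female ERaKO Wt1 UMIs. Over the whole proximal tubule class, measured Wt1 was 9.61, 2.27 and 3.54 times the count that podocyte RNA would bring. Foxc1 in the whole class was 11.8, 7.37 and 12.1 times that count, whereas Tcf21 was at 0.41, 1.27 and 0.54 times. These ratios were not taken within cluster 13.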
